A study of Mus musculus with 288 samples.

Results

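Dtx4, Ikzf4, Rhou and Ypel2 are 4 of the 35904 genes in the expression tables of a mouse series on intermittent hypoxia (IH) and the circadian clock. They were chosen because the study names them for a changed rhythm amplitude in the lung, so their lung values are given here as a description, without a test. The tests concern the other 5 tissues, the order of levels between tissues, and related genes.

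RNA was sequenced from 6 tissues (cerebellum, heart, kidney, liver, lung and muscle) of male wild-type C57BL/6J mice aged 8 weeks. Mice breathed room air throughout (normoxia) or cycles of falling and restored oxygen during the light phase, the inactive phase of mice, for 7 days (IH). All mice were then kept in constant darkness and room air, and tissues were taken on the second day at 8 time points, 3 h apart from 1:30 to 22:30, with 3 mice at each time point and treatment. The tables thus hold 288 libraries, 24 for each tissue and treatment, and the libraries are a record of what persisted after the exposure had ended, not of the hypoxia itself. The mice are a model of the oxygen swings of sleep apnea, without its airway obstruction.

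The circadian clock of a cell is a loop in which the activators Clock, Npas2 and Arntl (Bmal1) drive the repressors of the Per, Cry and Nr1d families, which in turn switch the activators off. Clock-controlled genes follow this loop with peaks at set hours of the day. Dtx4 encodes an E3 ubiquitin ligase of the Deltex family, proteins linked to Notch signalling. Ikzf4 (Eos) is a zinc-finger transcription factor of the Ikaros family, best known from regulatory T cells. Rhou is an atypical small GTPase that acts on the cytoskeleton and cell adhesion. Ypel2 belongs to the Yippee-like family of small, highly conserved proteins.

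In the GRCm38 annotation, Dtx4 (ENSMUSG00000039982) spans chr19:12466338-12501454 on the minus strand, with 9 exons in its 5226-base coding transcript. Ikzf4 (ENSMUSG00000002578) spans chr10:128630843-128645991 on the minus strand and has 8 transcripts, 3 of them protein-coding. Its first 108 bases overlap Gm26876, a non-coding RNA on the opposite strand. Rhou (ENSMUSG00000039960) spans chr8:123653929-123663884 on the plus strand and lies wholly inside Gm20388, a read-through gene on the same strand. Ypel2 (ENSMUSG00000018427) spans chr11:86936425-86993707 on the minus strand, with 5 exons. Neither overlapping gene has a row in the tables, so their own levels are not known here. Only reads from sequence that a member shares with its partner could not be told apart. Little of the members' sequence was shared with other annotated genes: of all stretches of 31 bases, 0.0192% in Dtx4, 0.932% in Ikzf4, 0.452% in Rhou and 0% in Ypel2 also occurred elsewhere among transcripts.

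Reference promoter sequence was at hand for Rhou and Ypel2. It is shown because clock factors act through short motifs near start sites. Whether Rhou and Ypel2 differ in their hours of peak expression in the lung was not tested. The bases before the start site (RefSeq, GRCm38.p6; chr8:123653679-123653928 on the plus strand for Rhou and chr11:86993806-86994012 on the minus strand for Ypel2) are printed 5′ to 3′ with CpG dinucleotides in capitals.
Rhou: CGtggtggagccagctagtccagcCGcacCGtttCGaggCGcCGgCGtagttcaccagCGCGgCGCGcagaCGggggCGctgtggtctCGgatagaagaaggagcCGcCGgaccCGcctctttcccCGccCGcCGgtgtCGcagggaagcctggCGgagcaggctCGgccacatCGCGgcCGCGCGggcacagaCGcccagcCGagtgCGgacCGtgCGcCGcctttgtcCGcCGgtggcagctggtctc
Ypel2: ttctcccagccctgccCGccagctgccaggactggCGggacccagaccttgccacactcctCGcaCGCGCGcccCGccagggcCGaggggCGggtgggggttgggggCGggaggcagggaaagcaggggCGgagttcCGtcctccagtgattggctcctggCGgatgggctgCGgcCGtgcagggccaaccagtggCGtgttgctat
Both are CpG-rich. The 300-base window of Rhou had 75.7% G and C and 46 CpG dinucleotides, more than 98.4% of 32851 promoters. That of Ypel2 had 72.7% G and C and 28 CpG, more than 85.8%. The medians over all promoters were 52.7% and 7. On both strands of these windows there was no match to the E-box CACGTG, held by 7.15% of promoters, or to its shorter core ACGTG, shared with hypoxia response elements and held by 19.6%. The nuclear receptor half-site AGGTCA (16.3% of promoters) and the D-box TTANNTAA (6.00%) were also without a match. Of the hypoxia response core only the form ACGTG was searched. The form GCGTG was not counted over promoters, but it can be read in the printed Ypel2 sequence, on both strands. The searched motifs being absent from these windows says nothing of binding elsewhere, and whether any factor binds at GCGTG was not tested.

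Each lung series was described by a 24-hour cosine curve with 3 values. The MESOR is the level around which the curve swings, the amplitude is the distance from MESOR to peak, and the acrophase is the hour of the peak. Levels are in TPM, the share of a library's transcripts that belongs to a gene, which is corrected for transcript length and can be compared between genes.

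Dtx4 had the highest amplitude of the 4 genes in the lung. Its 24 normoxia libraries ran from 4.47 to 11.8 TPM with a median of 7.58, and its 24 IH libraries from 4.67 to 21.1 TPM with a median of 9.70. At 22:30 the normoxia mice were at 11.5, 10.7 and 7.33 TPM, and the IH mice at 14.2, 15.7 and 21.1 TPM. The IH values there lay wholly above the normoxia values. At 7:30, near the trough, the values were 6.00, 4.84 and 5.85 TPM in normoxia and 4.67, 4.95 and 6.11 TPM after IH, and they overlapped. The fitted amplitude was 2.53 TPM ± 0.41 (SE, n = 24) in normoxia and 5.77 TPM ± 0.59 (SE, n = 24) after IH. The MESOR was 7.87 TPM in normoxia and 2.63 TPM higher after IH, and the amplitude relative to the MESOR was 32.2% and 55.0%. The acrophase was 21.2 h in normoxia and 21.4 h after IH.

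Ikzf4 was the lowest of the 4 genes. Normoxia libraries ran from 0.70 to 3.01 TPM with a median of 1.72, and IH libraries from 1.00 to 5.94 TPM with a median of 2.48. At 19:30 the normoxia mice had 3.01, 1.78 and 2.19 TPM and the IH mice 4.42, 5.94 and 4.42 TPM, without overlap. At 10:30 the values were 0.93, 0.94 and 1.35 TPM against 1.34, 1.64 and 1.48 TPM, where the lowest IH mouse lay just below the highest normoxia mouse. The amplitude was 0.47 TPM ± 0.12 (SE, n = 24) in normoxia and 1.62 TPM ± 0.22 (SE, n = 24) after IH, on a MESOR of 1.66 and 2.87 TPM. Relative to the MESOR it was 28.6% and 56.4%, and the acrophase was 21.5 and 21.8 h. At these low levels a few reads move a value, and the number of reads behind each library is unknown from TPM.

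Rhou had the lowest relative amplitude of the 4 genes in the normoxia lung. Its libraries ran from 6.80 to 12.1 TPM with a median of 8.68 in normoxia, and from 6.67 to 15.3 TPM with a median of 10.3 after IH. At 22:30 the values were 9.68, 9.68 and 8.64 TPM in normoxia and 15.2, 13.4 and 13.0 TPM after IH. At 7:30 they were 8.17, 8.08 and 8.15 TPM in normoxia and 6.95, 6.96 and 7.41 TPM after IH. The IH mice thus lay wholly above the normoxia mice at 22:30 and wholly below them at 7:30. The share of all lung genes that lay wholly below at 7:30 was not counted. The amplitude was 0.89 TPM ± 0.32 (SE, n = 24) in normoxia and 3.26 TPM ± 0.46 (SE, n = 24) after IH, or 9.86% and 30.2% of the MESOR. The normoxia curve described only a small share of the spread between libraries (R2 = 0.27, against 0.71 after IH), and its peak at 17.2 h had an SE of 1.39 h. After IH the peak was at 19.8 h.

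Ypel2 was near 8 TPM across the normoxia day and swung widely after IH. Normoxia libraries ran from 5.77 to 10.6 TPM with a median of 8.05, and IH libraries from 7.15 to 15.2 TPM with a median of 11.3. At 1:30 the normoxia mice had 9.95, 6.56 and 8.87 TPM and the IH mice 14.5, 14.3 and 15.2 TPM, a gap wider than the spread within either group. At 7:30 the values were 8.07, 5.77 and 7.99 TPM against 8.26, 7.63 and 8.36 TPM, and the groups overlapped. The amplitude was 0.92 TPM ± 0.33 (SE, n = 24) in normoxia and 3.31 TPM ± 0.41 (SE, n = 24) after IH, or 11.3% and 29.4% of the MESOR. R2 was 0.27 in normoxia and 0.76 after IH, and the acrophase was 21.4 and 21.6 h.

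**Figure D1:**
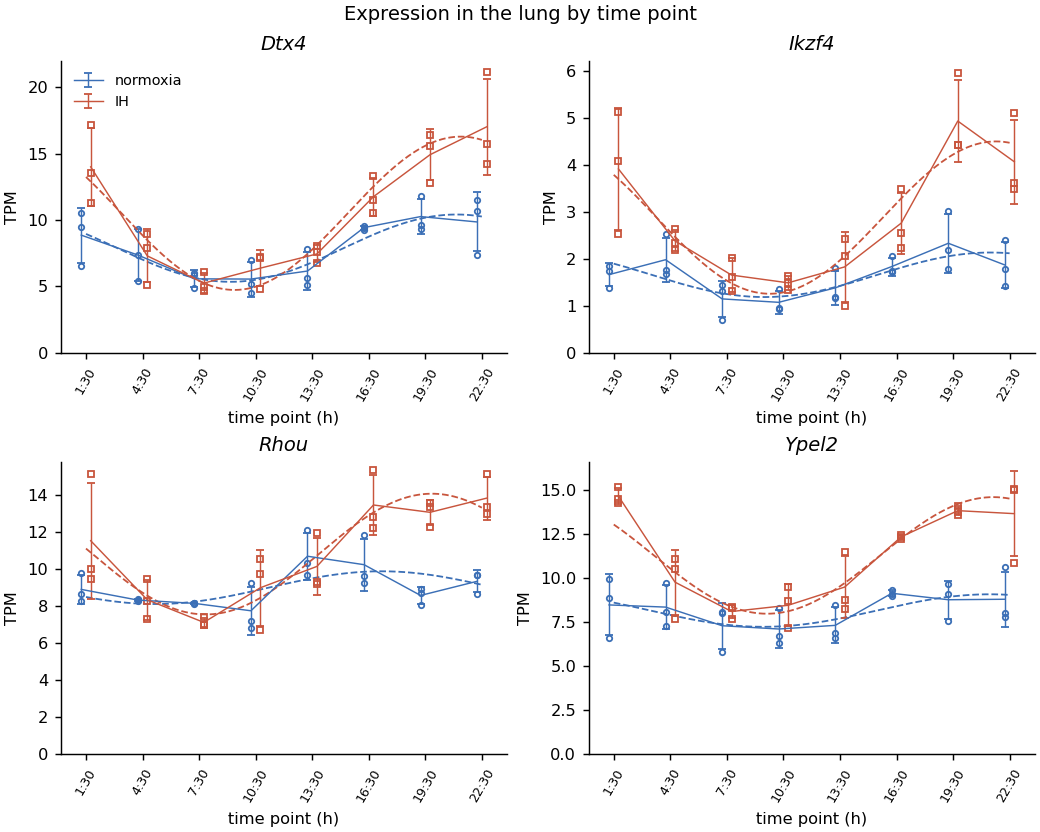
Lung expression (TPM) of the 4 genes by labelled time point. Open symbols are mice (circles normoxia, squares IH; 3 each), solid lines join means ± SD and dashed lines are the fitted cosine curves. All IH mice lie above all normoxia mice from 16:30 to 22:30 for each gene, and those of Rhou below at 7:30.

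The labels do not say whether hour 0 is midnight or lights on, so hours are given as labelled. IH libraries lay above all normoxia libraries at 1:30, 16:30, 19:30 and 22:30 for Dtx4, Ikzf4 and Ypel2, and at 16:30, 19:30 and 22:30 for Rhou. Such a gap was common among all 15426 lung genes at a mean of at least 1 TPM: 30.1% had it at 1:30, 34% at 16:30, 38.3% at 19:30 and 38.5% at 22:30, and 16.6% to 33.6% at the other 4 time points. Gaps at single time points outside the lung, given below, were not counted over all genes. The ratio of the IH mean to the normoxia mean ran for Dtx4 from 0.94 at 7:30 to 1.73 at 22:30, and for Ikzf4 from 1.20 at 4:30 to 2.35 at 1:30. For Rhou it ran from 0.87 at 7:30 to 1.52 at 19:30, and for Ypel2 from 1.11 at 7:30 to 1.73 at 1:30.

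Part of these ratios was common to most lung genes, and the source of that common part was not tested. TPM values of IH lung libraries ran higher for most genes: the factor that brings a library to the median gene had a median of 0.913 in normoxia and 1.12 after IH. After division by this factor (scaled TPM), the MESOR ratio of IH to normoxia was 1.08 for Dtx4, 1.39 for Ikzf4, 0.97 for Rhou and 1.12 for Ypel2, against 1.33, 1.73, 1.20 and 1.38 as deposited. The difference of MESOR for Rhou therefore turned direction with the scaling. The amplitude ratio remained above 1 on both scales, at 2.28 as deposited and 1.69 scaled for Dtx4, 3.42 and 2.51 for Ikzf4, 3.69 and 2.94 for Rhou, and 3.58 and 2.40 for Ypel2. The factor itself followed the time of day after IH, with a fitted relative amplitude of 5.34% peaking at 0.11 h, against 0.445% in normoxia. The number of time points with a higher IH mean fell with scaling from 6 to 5 for Dtx4, from 6 to 3 for Rhou and from 8 to 5 for Ypel2, and was 8 on both scales for Ikzf4. The part of the scaling in the amplitudes was not tested further.

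**Figure D2:**
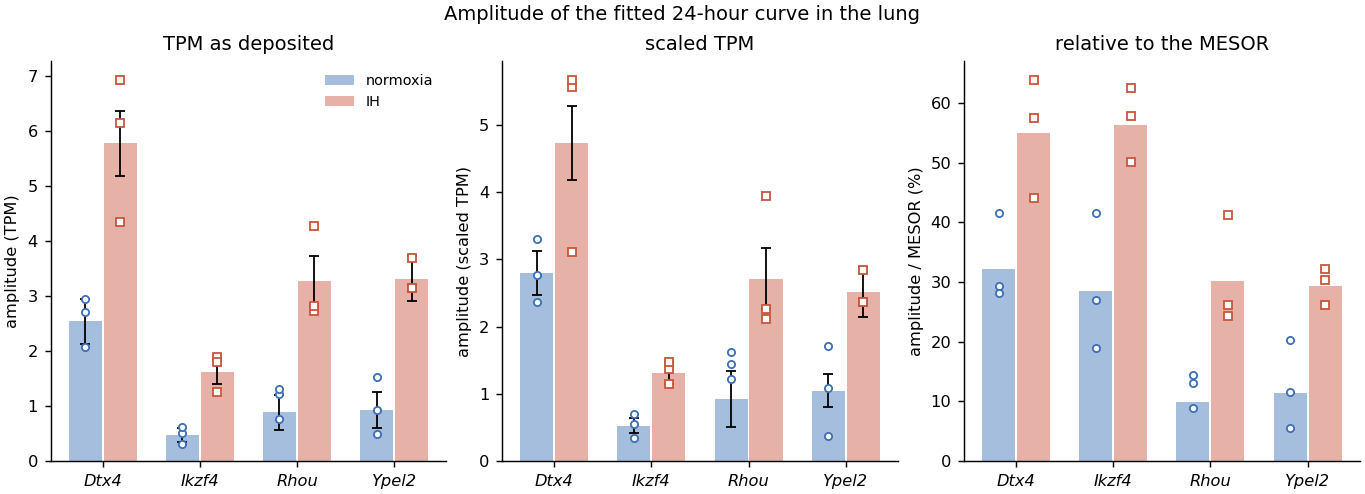
Amplitude of the fitted lung curves (bars) as deposited TPM, as scaled TPM and as a percent of the MESOR. Error bars are SE of the fit (left and middle panels), and points are fits to the 8 libraries that carry the same replicate number. The IH bars are the higher of each pair in all 3 panels, while the points of Dtx4 overlap on the scaled axis.

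Other features of the lung libraries moved with the treatment as well. The number of genes above 0 TPM was 22694 ± 737 (SD, n = 24) in normoxia and 25455 ± 1529 (SD, n = 24) after IH. With scaled TPM in limma, all 9 alveolar epithelium markers and all 5 endothelial markers were lower after IH. So were 3 of 4 B cell markers and 3 of 5 tested T cell markers. Of 5 airway epithelium markers 4 were lower and 1 was higher, and of 5 fibroblast markers 2 were lower and 1 was higher. In the same test 3 of 5 macrophage markers were higher, and so were 1 of 4 neutrophil, 2 of 5 cardiomyocyte and 2 of 4 tested skeletal muscle markers. The background was high, since 28.9% of all lung genes were called higher and 41.5% lower. The summed alveolar markers ran from 35513 to 53509 TPM (median 49148) in normoxia and from 15827 to 50609 TPM (median 43005) after IH. The summed macrophage markers ran from 53.4 to 676 TPM (median 284) and from 283 to 3436 TPM (median 579), and the summed T cell markers from 18.3 to 43.1 TPM and from 15.2 to 60.6 TPM. In the normoxia libraries of the other tissues the summed alveolar markers had medians of 24.2 TPM (muscle) to 323 TPM (cerebellum). In bulk tissue, fewer cells of a type and less RNA per cell cannot be told apart, and the part of cell make-up in the members' values was not tested.

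A few libraries stood apart. In the lung, the IH mouse at 1:30 with replicate number 2 had a median correlation of 0.871 with the other lung libraries, where 0.968 was typical. Without it the amplitude ratio was 2.31 for Dtx4 and 3.28 for Ikzf4. The IH mouse at 22:30 with replicate number 1 held 455 TPM of summed hepatocyte markers, while no normoxia lung library passed 2.62 TPM. It had 14.2 TPM of Dtx4 and 10.9 TPM of Ypel2, the lowest of its 3 mice for both, and 15.2 TPM of Rhou, the highest. Outside the lung, 1 liver, 2 heart and 5 cerebellum libraries fell under a median correlation of 0.9.

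The study required an adjusted rhythm call in at least 1 treatment, and a cosine p of 0.05 or less in both. Rhou and Ypel2 met the like conditions in the refit, although their normoxia lung curves were not called by the adjusted rhythm test used here. In the refit of the lung values, the amplitude difference was adjusted over the 3548 genes rhythmic in at least 1 treatment. An adjusted p of 0.05 was passed by 10 genes (0.282%), among them Nr1d2, Eln, Per3, Arntl and Npas2, and over all 20106 lung genes tested by 0 (4.38% at an unadjusted p of 0.05 or less). Just inside lay Npas2, an activator of the clock, with amplitudes of 4.14 TPM in normoxia and 8.42 TPM after IH. Just outside lay the cell-cycle phosphatase gene Cdc25b with 1.21 and 6.17 TPM, and the adrenergic receptor gene Adra1a with 1.69 and 4.71 TPM. Higher amplitudes after IH were common in the lung. Among 1142 genes rhythmic in at least 1 treatment and with a cosine p of 0.05 or less in both, the median amplitude ratio was 1.43, 82.4% had a ratio above 1 and 75.8% had a higher relative amplitude.

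Outside the lung, the rhythms of Dtx4 and Ypel2 recurred in peripheral tissues, that of Rhou in fewer, and Ikzf4 had none that passed the test. The rhythm test joined a rank test (JTK) and a Lomb-Scargle test at 24 hours. It called 8 of 19 gene and tissue combinations in normoxia and 11 of 19 after IH, and without the libraries of any single replicate number 4 to 5 and 7 to 9. The share of all genes called in normoxia and after IH was 15.5% and 8.33% in the liver, 16.3% and 3.6% in the kidney, 3.45% and 7.75% in muscle, 0.843% and 4.1% in the heart, and 4.76% and 0.0421% in the cerebellum. No member was called in the cerebellum under either treatment. Dtx4 in the liver and kidney and Ypel2 in the kidney were called under both treatments in all 10 other settings tried, while each other combination called in normoxia lost its call in some of them. After IH, Dtx4 in muscle and heart and Ypel2 in muscle also held in all 10. Fewer of the 10 settings called Ypel2 in the liver (8), Rhou in the kidney (7), muscle (7) and heart (5), and Ypel2 in the heart (4, adjusted p up to 0.57).

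Dtx4 was rhythmic in the liver, kidney, muscle and heart under both treatments. In the liver at 1:30 it stood at 2.95, 4.58 and 6.12 TPM in normoxia and at 3.35, 4.36 and 6.96 TPM after IH, and at 10:30 at 0.82, 0.70 and 1.48 TPM and at 0.53, 0.66 and 1.03 TPM. The values at 1:30 lay above those at 10:30 in either treatment, whereas the treatments overlapped at both hours. The liver amplitude was 1.84 TPM ± 0.30 (SE) in normoxia and 2.14 TPM ± 0.28 (SE) after IH, 67.0% and 71.9% of the MESOR, the largest relative swings of Dtx4 in any tissue. In the kidney the amplitude was 1.58 and 2.21 TPM, in muscle 1.60 and 2.40 TPM, and in the heart 0.83 and 0.99 TPM.

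Ypel2 was rhythmic in the liver, kidney and muscle under both treatments, and in the heart after IH (adjusted p = 0.021, against 0.34 in normoxia; the difference between the treatments in this call was not tested). In the kidney at 22:30 it stood at 6.22, 7.93 and 7.66 TPM in normoxia and at 8.86, 9.03 and 10.45 TPM after IH, and at 10:30 at 2.32, 1.78 and 1.98 TPM and at 2.20, 2.55 and 2.07 TPM. At 19:30, the hour with the highest normoxia mean, the values were 7.80, 9.74 and 5.70 TPM and 9.75, 7.45 and 5.14 TPM. The treatments thus overlapped at 19:30 and 10:30 and not at 22:30. The kidney amplitude was 2.47 TPM ± 0.40 (SE) and 3.44 TPM ± 0.40 (SE), 53.4% and 73.4% of the MESOR. The relative amplitude in normoxia was 11.3% in the lung, and this difference between tissues was not tested.

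Rhou was rhythmic in the kidney under both treatments, with amplitudes of 0.42 TPM ± 0.09 (SE) and 0.51 TPM ± 0.12 (SE), and in muscle and heart after IH. In muscle its amplitude was 0.68 TPM ± 0.66 (SE) in normoxia and 2.41 TPM ± 0.57 (SE) after IH. At 1:30 the muscle values were 11.3, 5.54 and 6.26 TPM in normoxia and 10.7, 17.5 and 14.0 TPM after IH, which overlapped. Ikzf4 was below 1 TPM on average in the liver, kidney, muscle and heart. It passed the filter of a maximum of at least 1 TPM in the liver, kidney, muscle and cerebellum, and its adjusted p for rhythm was 0.98 or above in all 8 of those tests.

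**Figure D3:**
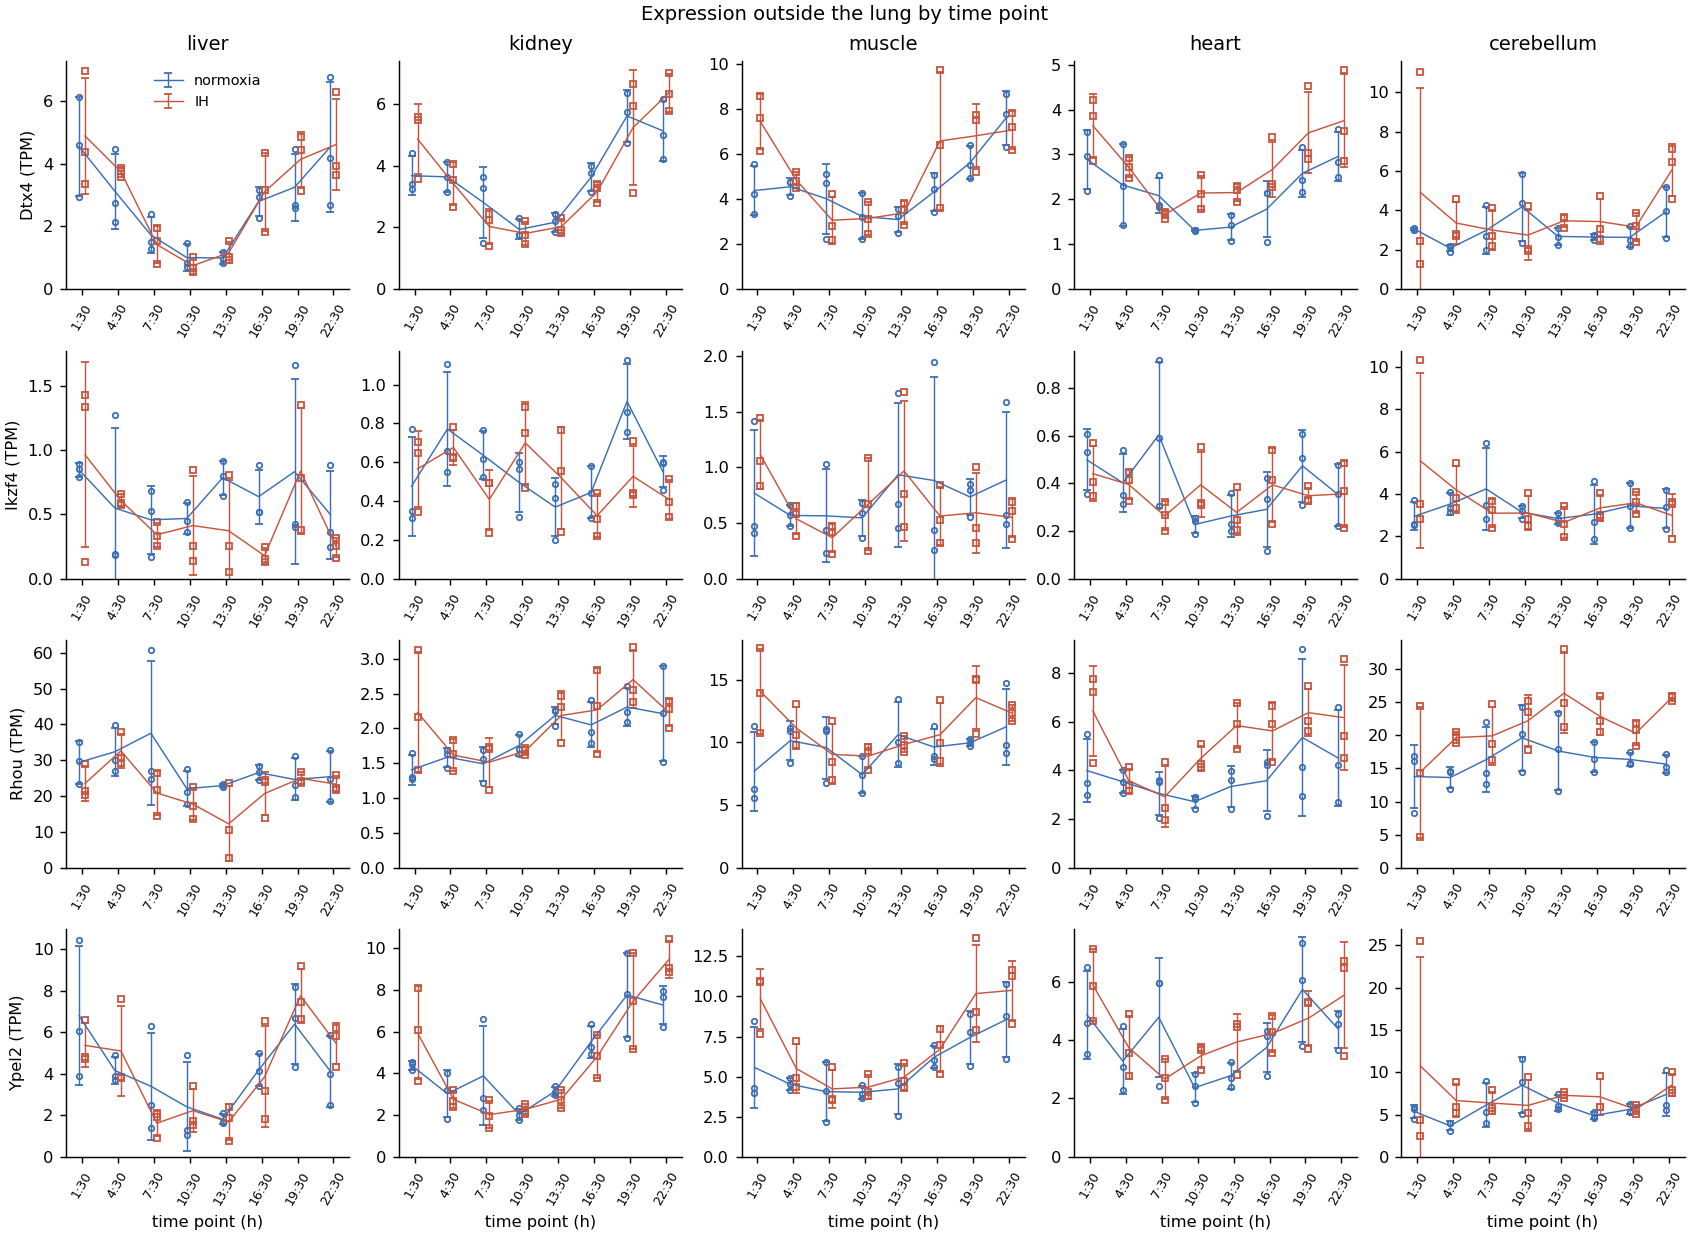
Expression (TPM) of the 4 genes by time point in the liver and the kidney, in muscle and heart, and in the cerebellum. Open symbols are mice (circles normoxia, squares IH; 3 each) and lines join means ± SD. Dtx4 rises and falls with the hour in the 4 peripheral tissues, Ypel2 in the liver, kidney and muscle, and Ikzf4 stays low except in the cerebellum.

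No amplitude difference between the treatments was called outside the lung, in 0 of 19 combinations, and none of the genes of these tissues was called at all (0% in each of the 5). At an unadjusted p of 0.05 or less, 1 of 19 passed: Ypel2 in muscle, with a difference of 1.34 TPM (95% interval 0.04 to 2.64; unadjusted p = 0.043, adjusted p = 1). The share of genes at or below that unadjusted p was 0.634% for the heart, 1.02% for the kidney, 1.04% for the liver, 1.25% for muscle and 10.9% for the cerebellum. The fitted amplitude was higher after IH in 17 of the 19 combinations. That share over all genes tested was 29.3% for the cerebellum, 40% for the kidney, 54.6% for the heart, 59.7% for muscle and 64.8% for the liver. Without the libraries that stood apart it was 15 of 19 for the members.

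The intervals of these differences were wide. For Dtx4 they ran from −0.52 to 1.12 TPM in the liver, −0.05 to 1.31 TPM in the kidney, −0.25 to 1.84 TPM in muscle and −0.28 to 0.61 TPM in the heart. For Rhou in muscle the difference was 1.73 TPM (−0.02 to 3.49 TPM), and for Ypel2 in the kidney 0.97 TPM (−0.18 to 2.12 TPM). They thus include 0 and also amplitudes well above those of normoxia. Whether the lung differed from these tissues was not tested, because the lung values chose the genes.

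The level of a gene over the day, its MESOR, was called different in 4 of 19 combinations, each higher after IH. No member was called in the liver (17.7% of genes called) or the kidney (8.79%). Dtx4 in the heart went from 2.16 to 2.77 TPM (difference 0.61 ± 0.16, SE; adjusted p = 0.0020) and Rhou in the heart from 3.76 to 5.18 TPM (1.42 ± 0.39, SE; adjusted p = 0.0042), in a tissue where 35.6% of genes were called. At 10:30 Dtx4 in the heart had 1.32, 1.32 and 1.28 TPM in normoxia and 2.53, 2.11 and 1.77 TPM after IH, with no overlap. Ypel2 in muscle went from 5.58 to 7.02 TPM (1.44 ± 0.46, SE; adjusted p = 0.029; 13.7% of genes called). Rhou in the cerebellum went from 16.2 to 21.4 TPM (5.22 ± 1.26, SE; adjusted p = 0.0081; 5.05% called). There at 22:30 the values were 17.2, 15.3 and 14.5 TPM in normoxia and 25.1, 26.0 and 26.0 TPM after IH, without overlap, while at 1:30 they were 8.24, 16.9 and 16.1 TPM against 24.4, 14.3 and 4.58 TPM. Without the libraries of replicate number 1 the calls of Dtx4 and Rhou in the heart (differences 0.40 and 0.99 TPM, adjusted p = 0.055 and 0.19) and of Rhou in the cerebellum (4.01 TPM, adjusted p = 0.47) were lost. The cerebellum call also ended without number 2 (4.81 TPM, adjusted p = 0.44) and on log2(TPM + 0.5) (log2 difference 0.36, adjusted p = 0.060), and that of Ypel2 in muscle without numbers 2 or 3 (1.53 and 1.02 TPM, adjusted p = 0.20 and 0.26) and on scaled TPM (1.07, adjusted p = 0.073). Rhou in the liver had a difference of −5.62 TPM without a call (adjusted p = 0.062), and 3 of 8 other settings called it (lowest adjusted p = 0.012).

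In limma on scaled values, which asks about the mean rather than the fitted curve, Rhou was called in the heart (log2 difference 0.31 ± 0.11, SE; adjusted p = 0.015; 45.2% of genes called) and in the cerebellum (0.37 ± 0.09, SE; adjusted p = 0.0036; 15% called). The other 14 combinations tested were not called, in the kidney (19.8% of genes called) and muscle (10.4%) as elsewhere. Rhou in the liver had the lowest value, −0.27 ± 0.11 (SE; adjusted p = 0.077; 24.2% called). Dtx4 in the heart was at 0.21 ± 0.10 (SE; adjusted p = 0.074). In the heart, genes above 0 TPM numbered 25124 ± 1719 (SD, n = 24) in normoxia and 21447 ± 688 (SD, n = 24) after IH. Some summed markers there also moved, with medians from 472 to 657 TPM for fibroblasts and 203 to 288 TPM for endothelium. For adipocytes the medians were 62.8 and 132 TPM, with ranges that overlapped widely (20.3 to 473 TPM and 14.6 to 564 TPM). The medians of neutrophil markers (13.6 and 13.7 TPM) and T cell markers (2.61 and 2.56 TPM) hardly moved. The part of detected genes and cell make-up in the heart calls was not tested. Both Rhou calls were lost without the libraries of replicate number 1 (0.25, adjusted p = 0.16 in the heart; 0.27, adjusted p = 0.26 in the cerebellum). In the heart the call also ended without number 3 (0.28, adjusted p = 0.10), and in the cerebellum without number 2 (0.36, adjusted p = 0.24) and on deposited TPM (0.36, adjusted p = 0.063).

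Peak hours are given beside that of Arntl for the lung, with no call of rhythm required there, and elsewhere for called curves. Arntl itself peaked at 22.1 h in the normoxia lung and 22.2 h in the IH lung. In the lung Dtx4 peaked 0.90 h before Arntl in normoxia and 0.85 h before it after IH, and Ypel2 0.63 and 0.60 h before it. In the kidney Dtx4 peaked at 21.95 and 22.51 h and Ypel2 at 20.8 and 21.5 h. In the liver Dtx4 peaked at 23.4 and 23.1 h and Ypel2 at 23.2 and 22.3 h. Rhou ran earlier in the kidney, at 17.62 and 19.46 h, that is 4.14 and 2.42 h before Arntl, and in the heart after IH it peaked at 19.7 h. With samples every 3 h, differences of an hour are below the spacing of the data.

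**Figure D4:**
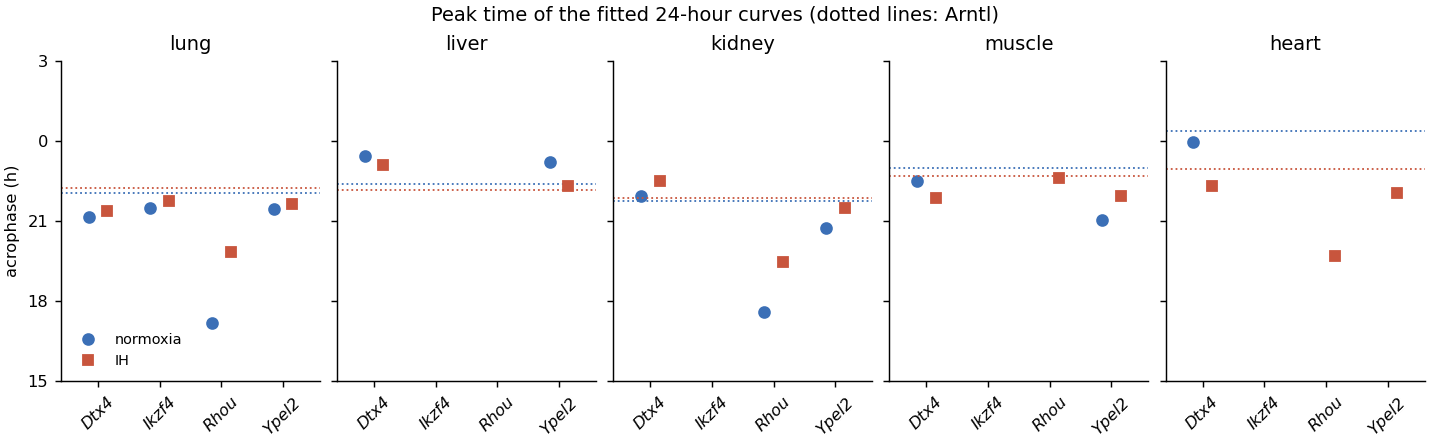
Acrophase (h) of the fitted 24-hour curves by gene and tissue, for all lung curves and for the curves called rhythmic elsewhere (circles normoxia, squares IH), with dotted lines at the acrophase of Arntl. Dtx4 and Ypel2 lie within 2 h of the dotted lines, and Rhou lies more than 2 h below them, except in muscle after IH.

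Across tissues in normoxia the 4 genes had unlike orders of level. Neighbours in each order were compared in limma on log2(TPM + 0.5), and 10 of the 20 neighbouring pairs were called. Most genes differ between tissues: the share of all genes called was 80.9% for muscle and kidney, 83.4% for liver and heart, 84.1% for muscle and liver, 84.5% for liver and kidney, 84.8% for kidney and heart, 87.6% for kidney and cerebellum, 87.9% for cerebellum and muscle, 88.9% for lung and muscle, 89.2% for lung and cerebellum, 90.7% for lung and heart, and 91.8% for cerebellum and liver. Dtx4 was highest in the lung (7.87 TPM ± 2.27, SD), then muscle (4.60 TPM), kidney (3.57 TPM), cerebellum (3.01 TPM), liver (2.74 TPM) and heart (2.16 TPM). Its lung and muscle levels differed, as did those of muscle and kidney (log2 differences 0.73 and 0.34, adjusted p = 1.3e-06 and 0.024). The steps from kidney to cerebellum, cerebellum to liver and liver to heart were not called (adjusted p = 0.23, 0.096 and 0.27). Of 10 other settings, 2, 4 and 1 called them in that order. Ypel2 was also highest in the lung (8.14 TPM ± 1.28, SD), above the cerebellum at 5.98 TPM (log2 difference 0.46, adjusted p = 0.0032), and muscle, kidney, liver and heart followed at 5.58, 4.62, 4.16 and 3.99 TPM without a called step.

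Ikzf4 was highest in the cerebellum at 3.31 TPM, then the lung at 1.66 TPM and muscle at 0.73 TPM, each step called (log2 differences 0.82 and 0.84, adjusted p = 2.6e-12 and 8.9e-13). Liver, kidney and heart followed at 0.64, 0.58 and 0.39 TPM. Of these, kidney and heart differed (0.28, adjusted p = 0.012). Rhou ran from 27.6 TPM in the liver through 16.2 TPM in the cerebellum, 9.54 TPM in muscle, 8.99 TPM in the lung and 3.76 TPM in the heart to 1.87 TPM in the kidney, and each step was called except that from muscle to lung (0.06, adjusted p = 0.56). Rhou thus stood highest in the liver, where its rhythm did not pass the test, and lowest in the kidney, where it did. On values scaled over all 6 tissues the step from lung to muscle for Dtx4 turned to −0.08, so that lead depended on the scaling, as did the steps from lung to heart for Rhou (0.11, adjusted p = 0.20), from lung to cerebellum for Ypel2 (0.17, adjusted p = 0.23) and from kidney to heart for Ikzf4 (0.05, adjusted p = 0.62). Libraries of different tissues may come from the same mice, which these tests do not use.

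**Figure D5:**
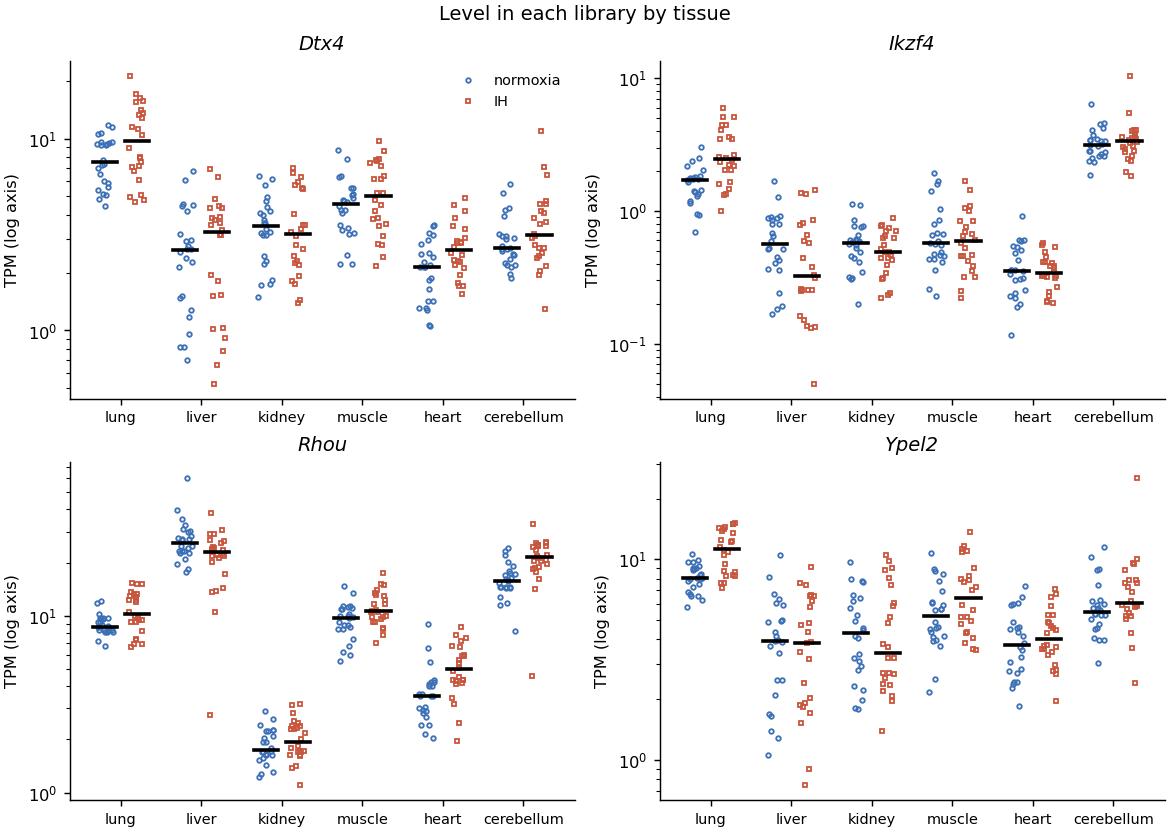
Level of the 4 genes in each library by tissue, on a log axis of TPM. Points are libraries (circles normoxia, squares IH; 24 each) and black bars are medians. Rhou spans the widest range, from the kidney to the liver, and Ikzf4 lies below 1 TPM in most liver, kidney, muscle and heart libraries.

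Relatives of Dtx4, Ikzf4 and Ypel2, Notch pathway genes and clock genes were counted in the lung with the same tests, where 28.9% of all genes were called higher and 41.5% lower on scaled TPM. In the Deltex family, 1 of 4 relatives was higher and 2 were lower in scaled TPM. Dtx3 rose by 0.80 ± 0.09 on the log2 scale (26.5 to 59.6 TPM as deposited; adjusted p = 3.0e-11), whereas Dtx1 and Dtx2 fell by 0.27 and 0.32. In the Ikaros family 1 of 4 was higher, Ikzf2 (Helios), with a log2 difference of 0.68 ± 0.08 (1.08 to 2.56 TPM; adjusted p = 9.3e-11). Ikzf1 (Ikaros), Ikzf3 and Ikzf5 were not called. In the Yippee family 2 of 4 were higher, Ypel1 by 0.64 ± 0.11 and Ypel4 by 0.81 ± 0.12, and Ypel3 and Ypel5 were not called.

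Of 22 genes of the Notch pathway, 2 were higher and 9 lower, and the share lower is near that of all lung genes. The receptor Notch1 rose by 0.35 and the ligand Jag2 by 0.21, while the ligands Dll1 and Dll4, the target Hes1 and the feedback inhibitor Nrarp were among those lower. Of the 17 clock genes 5 were higher and 0 lower: Per2, Per3, Cry2, Tef and Ciart. On deposited TPM, where the median of all lung genes was 0.21 instead of −0.08 on the log2 scale, the counts of higher and lower genes were 2 and 0 in the Deltex family, 3 and 0 in the Ikaros family, 4 and 0 in the Yippee family, 12 and 1 in the Notch pathway and 9 and 0 among clock genes. On that scale 55% of all lung genes were called higher and 10.7% lower.

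The amplitude difference was called in 0 genes of every list. The lung amplitude was higher after IH in 17 of 17 clock genes, 9 of 22 Notch pathway genes and in all 4 of each of the Deltex, Ikaros and Yippee families, on deposited TPM, where 78.2% of all lung genes had a higher amplitude. On scaled TPM these were 16, 9, 3, 4 and 3 in that order, against 60.9% of all lung genes. At an unadjusted p of 0.05 or less there were 11 clock genes, 3 Notch pathway genes and 1 Ikaros family gene, against 4.38% of all genes. By rhythm, 16 of 17 clock genes were called in either treatment, and the numbers in normoxia and after IH were 0 and 1 in the Deltex family, 0 and 2 in the Ikaros family, 0 and 0 in the Yippee family and 4 and 2 in the Notch pathway. Of all lung genes 9.42% were called rhythmic in normoxia and 11.6% after IH.

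By size of the amplitude difference, the leading relatives were Dtx3 (2.02 TPM in normoxia and 5.76 TPM after IH), Dtx3l and Dtx1 in the Deltex family. Ikzf3 (Aiolos), with 1.01 and 6.59 TPM (unadjusted p = 0.0043, adjusted p = 0.92), led the Ikaros family before Ikzf1 and Ikzf5. Ypel3 (9.23 and 16.98 TPM), Ypel5 and Ypel1 led the Yippee family. In the Notch pathway the leading values went the other way, with amplitudes lower after IH for Notch4 (14.998 and 4.77 TPM; unadjusted p = 0.013, adjusted p = 0.92), Numb (7.85 and 4.17 TPM) and Notch1 (5.08 and 1.43 TPM). Among clock genes Tef had 77.1 and 157 TPM, Dbp 69.8 and 102.3 TPM and Nr1d2 24.7 and 47.2 TPM, and relative to the MESOR these were 63.6% and 65.6%, 115% and 133%, and 79.9% and 96.9%.

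The members were alike in their lung pattern. Over the 16 lung means (8 time points in each treatment, on log2(TPM + 0.5)), Pearson's r between members ran from 0.74 for Ikzf4 with Rhou to 0.95 for Ikzf4 with Ypel2. All points share libraries, and the members were chosen by a common pattern there. Over the 80 means of the other 5 tissues, centred within tissue, r was 0.89 for Dtx4 with Ypel2 and between 0.08 and 0.57 for the other 5 pairs. With Arntl, r in those tissues was 0.89 for Dtx4, 0.85 for Ypel2, 0.41 for Rhou and 0.26 for Ikzf4.

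Among 15425 other lung genes, the most like Dtx4 was Ahcyl2 (r = 0.98), followed by Lmtk2, Vgll3, Bik and Tuft1. The most like Ikzf4 was the interleukin-1 receptor gene Il1r1 (r = 0.96), followed by Abtb2, Adra1a, Ypel2 and Arl3. For Rhou they were Ncbp2 (r = 0.93), Dnajb2, Bicd2, St3gal3 and Coq5, and for Ypel2 they were Abtb2 (r = 0.98), Dpp9, Ehf, Trpm5 and Lpcat3. In the other tissues r for these 20 pairs, which were picked for a high r in the lung, ran from −0.16 for Ikzf4 with Arl3 to 0.70 for Rhou with Dnajb2.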

How the data were processed

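Total RNA (Trizol) was enriched by poly(A) selection and sequenced with a directional kit. The authors quantified reads with kallisto against the Ensembl mouse annotation and deposited TPM per gene and library (989211 to 999188 in sum over genes). The submitters' notes name mm10, bcl2fastq, FastQC 0.11.3 and DESeq2; whether kallisto used strand is not given in the sources used here. TPM keep no depth, so no counting error could be given. No column of another sample was present.

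Mean levels were compared with limma 3.58.1 (R 4.3.3) on log2(TPM + 0.5) after scaling by the median of ratios within a tissue, keeping genes that averaged 1 TPM or more; levels between tissues used deposited TPM. This replaces the count model of the study, which TPM do not allow. Rhythm, amplitude and MESOR were computed on deposited TPM wherever a gene reached 1 TPM in some library: a JTK-like rank test and a Lomb-Scargle test joined by Fisher's method, which is lenient because both read the same values, and 24-hour cosine fits. Calls are adjusted p-values (Benjamini-Hochberg over all genes tested) of 0.05 or less. Scripts were tested on simulated data. The study states 3 mice per time point and treatment.

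The members and lists were chosen with earlier results of these data known. Genes named are the members, relatives past the lung test, the 3 of each list with the largest amplitude difference, the 5 genes most like each member, and 2 on either side of the amplitude threshold, taken among genes rhythmic in at least 1 treatment; 1 of these and 1 list of relatives are not reported here.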

Additional observations from a re-analysis of the deposited data

How the results depend on the processing

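Each value was recomputed under other settings (pseudocount, scaling, filters, test, replicate number, leaving out a replicate number), and without the libraries that stood apart, a setting chosen after seeing the data that moved no call or count of calls past its threshold. For the mean outside the lung, the 2 calls became 1 at a mean of at least 5 TPM, 4 when time point entered the fit, and 1 to 3 without a replicate number. Without number 1 the single call was another one, Rhou in muscle (0.22, adjusted p = 0.049), without number 2 Rhou in the heart, and without number 3 Dtx4, Rhou and Ypel2 in the cerebellum. Rhythm calls went from 8 to 5 in normoxia with the rank test alone and to 5 with the cosine fit alone, and to 4 to 5 without a replicate number; after IH they went from 11 to 7 with the cosine fit alone and to 7 to 9 without a replicate number. The 4 MESOR calls became 2 to 4 without a replicate number. Of the 3 left without number 1, Rhou in the kidney (0.39 TPM) and in muscle (2.93 TPM) were not called with all libraries, and of the 4 without number 3, Rhou in the liver (−4.53 TPM) was not. The lung amplitude ratio of Rhou ran from 2.89 to 5.14 without a replicate number.

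In the lung lists on deposited TPM, higher and lower genes were 2 and 0 (Deltex), 3 and 0 (Ikaros), 4 and 0 (Yippee), 12 and 1 (Notch) and 9 and 0 (clock). Without a replicate number, lower genes were 0 to 1 in the Ikaros family, 0 to 1 in the Yippee family and 4 to 13 in the Notch pathway, and higher genes were 1 to 4 in the Notch pathway and 3 to 5 among clock genes. In the order of levels, scaling reversed Dtx4 lung minus muscle (−0.076), Dtx4 cerebellum minus liver (−0.75), Ikzf4 muscle minus liver (−0.26), Ypel2 cerebellum minus muscle (−0.41) and Ypel2 kidney minus liver (−0.53), and in IH libraries Rhou liver minus cerebellum was −0.018. The cause was not tested.

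With replicate numbers as a pairing block, same-numbered libraries of a time point gave 5 calls of the mean (Dtx4 in the heart, Rhou in the liver and Ypel2 in muscle added), while the number as a term gave 2 calls of the mean, 8 and 9 of rhythm and 6 of the MESOR. Those rhythm calls came from the cosine fit, which alone and without the number gave 5 in normoxia and 7 after IH. The numbers were not shown to pair mice: in no tissue did the deviations of same-numbered libraries correlate above 0.1 in all 24 pairs. In the lung they did in 6 pairs. In 5 of the 24 lung pairs the normoxia library correlated best with its same-numbered IH library, out of 3 at that time point. In the liver it was 16 pairs (median 0.218) and 14, and in muscle 12 pairs (median 0.105) and 12. Among values not called under either setting, the sign changed 9 times for the mean, 9 for the MESOR, 15 for amplitude and 14 for levels. TPM carry no depth, so precision rests on the spread between mice alone, and low genes such as Ikzf4 are the least certain.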
